A study of Mus musculus with 28 samples.

Results

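The insulin-like growth factor (IGF) family was followed in the cerebral cortex of mice with a conditional gene knockout in astrocytes. Its 10 genes were chosen by family name and annotation symbol, out of 53342 gene identifiers in each table: the ligands Igf1 and Igf2, the receptors Igf1r and Igf2r, and the binding proteins Igfbp2, Igfbp3, Igfbp4, Igfbp5, Igfbp6 and Igfbp7. The family was picked with earlier results of these libraries known and the values behind that choice are not recorded, so the tests below describe these libraries and are not independent evidence about the family. Igfbp1, a binding protein that was not chosen, was at or below 0.437 CPM in every library, where CPM is a gene's count per 1000000 counts of the TMM-scaled library.

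The conditional knockout (cKO) mice were homozygous for a floxed allele (loxP/loxP) and carried mGFAP-Cre, in which a mouse Gfap promoter drives Cre in astrocytes, and the control (Ctrl) mice were sex-matched littermates with loxP/loxP or loxP/+ alleles and no Cre in the genotype given. Whole cortex was sequenced at postnatal day 17 (P17) and at P24 from 4 cKO and 4 Ctrl mice each. At P24, translating ribosome affinity purification (TRAP) gave an Input library, made from the cortical lysate, and an immunoprecipitated (IP) library, made from ribosomes carrying EGFP-tagged Rpl10a expressed under the same Cre, from each of 3 cKO and 3 Ctrl mice. Whether the Ctrl mice used for TRAP carried Cre was not stated, although the tag needs it. If they did, the bulk and TRAP comparisons between genotypes used Ctrl mice of unlike genotype. Each library came from 1 mouse.

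IGF1 and IGF2 are secreted growth factors. Both signal through the IGF1 receptor, a receptor tyrosine kinase that acts through the insulin receptor substrates, PI3K, Akt and the FoxO transcription factors, while the IGF2 receptor carries IGF2 to lysosomes for degradation. The binding proteins hold the ligands outside the cell, lengthen their stay there, and release them when proteases cut them. In the brain, astrocytes, microglia, vessels, choroid plexus and meninges are all known sources of family members.

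Bulk libraries held from 8855488 to 14575306 counts on genes, and TRAP libraries from 18433087 to 27242445. With 3 counts as the floor of detection, the bulk floor ran from 0.202 to 0.341 CPM and the TRAP floor from 0.106 to 0.167 CPM, which covers counting error only. The summed level of 8 astrocyte markers lay between 828 and 954 CPM in Ctrl Input and between 8380 and 11069 CPM in Ctrl IP libraries. The 7 endothelial markers summed to between 8.95 and 10.1 CPM in Ctrl Input libraries against 140 to 156 CPM in P24 bulk Ctrl libraries, so Input was not equivalent to whole cortex.

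The binding proteins Igfbp2, Igfbp3 and Igfbp5 carried most of the differences between genotypes, and the 250 bases upstream of the RefSeq start of each are shown here so that the regions can be compared. Igfbp2 lies on chromosome 1 (GRCm38, 72824503 to 72852474, plus strand) and Igfbp5 on the same chromosome (72857932 to 72874884, minus strand), so that the 3′ ends of the pair face each other, while Igfbp3 lies on chromosome 11 (7206086 to 7213923, minus strand). The windows are chr1:72824230-72824479 for Igfbp2, chr1:72874866-72875115 for Igfbp5 and chr11:7213924-7214173 for Igfbp3, from the RefSeq promoter table of GRCm38.p6, each written on its gene's strand. Capitals mark matches to 5 motifs searched on both strands: TATANA (the TATA box), TGANTCA (bound by AP-1), TTCNNNGAA (bound by STAT proteins), GTAAACA (bound by FoxO) and CACGTG (the E-box).
Igfbp2: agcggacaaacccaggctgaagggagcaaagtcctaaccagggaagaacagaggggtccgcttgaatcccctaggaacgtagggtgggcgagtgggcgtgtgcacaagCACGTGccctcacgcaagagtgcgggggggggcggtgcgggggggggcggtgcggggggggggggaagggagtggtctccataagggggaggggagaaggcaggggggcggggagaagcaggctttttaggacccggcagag
Igfbp3: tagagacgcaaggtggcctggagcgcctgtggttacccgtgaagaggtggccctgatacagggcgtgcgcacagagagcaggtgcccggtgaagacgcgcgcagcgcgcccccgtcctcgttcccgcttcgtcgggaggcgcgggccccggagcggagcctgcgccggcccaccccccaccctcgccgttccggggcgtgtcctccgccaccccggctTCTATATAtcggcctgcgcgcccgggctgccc
Igfbp5: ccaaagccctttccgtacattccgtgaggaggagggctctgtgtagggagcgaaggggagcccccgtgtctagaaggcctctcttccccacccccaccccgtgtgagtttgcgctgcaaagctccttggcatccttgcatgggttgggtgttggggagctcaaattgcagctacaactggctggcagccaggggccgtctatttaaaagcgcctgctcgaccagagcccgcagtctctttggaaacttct

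Igfbp2 held a single CACGTG, starting 142 bases before the start, a motif that 6.02% of all 32851 windows of this length held. Igfbp3 held overlapping TATANA matches that began 32 and 30 bases before the start, and 22.6% of all windows held that motif. Igfbp5 held no exact match to the 5 patterns. Sequences that vary from the patterns, such as the tatttaaa in this window, were not searched. The GC content was 67.2% for Igfbp2, 73.2% for Igfbp3 and 58.8% for Igfbp5, beside a median of 52.4% over all windows. All 10 genes had a window in the table. CACGTG was also found in that of Igf2r, and TATANA in those of Igfbp4 and Igfbp6. Neither motif was therefore particular to Igfbp2 or Igfbp3 within the family. TGANTCA, held by 6.75% of all windows, was found in that of Igf1 alone, while TTCNNNGAA (7.02%) and GTAAACA (3.17%) were found in none.

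The levels were first set side by side within each group, as CPM per kb of exon so that genes of different length could be compared. Igfbp5 was the most abundant member in P24 bulk Ctrl cortex, at 24.1 ± 1.56 CPM per kb (SD, n = 4). Next came Igfbp7 at 15.9 ± 0.195, and Igfbp4 at 13.9 ± 0.616 CPM per kb. Igfbp4, Igfbp2, Igfbp6 and Igf2 then followed each other with overlapping libraries, down to 11.9 ± 1.29 CPM per kb for Igf2.

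Both receptors and Igfbp3 formed a lower tier in P24 Ctrl cortex, with Igf2r at 5.52 ± 0.177, Igf1r at 5.13 ± 0.636 and Igfbp3 at 4.15 ± 0.655 CPM per kb, each overlapping its neighbour. Igf1 was lowest in all 8 groups, and its P24 Ctrl level was 0.877 ± 0.207 CPM per kb. The order was different in the TRAP fractions. In Ctrl IP libraries Igfbp2 was highest at 28.6 ± 6.80 CPM per kb (SD, n = 3), above Igfbp6 at 15.8 ± 3.26 CPM per kb, and Igf2 stood at 0.522 ± 0.00889 CPM per kb.

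In Ctrl Input libraries Igfbp6 was highest, at 23.8 ± 4.13 CPM per kb. In cKO groups Igfbp5 stayed first in both bulk ages, Igfbp2 in IP and Igfbp6 in Input. Igfbp3 moved from rank 9 in P24 bulk Ctrl to rank 6 in cKO libraries, and from rank 6 in Ctrl IP to rank 4 in cKO IP libraries.

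**Figure D1:**
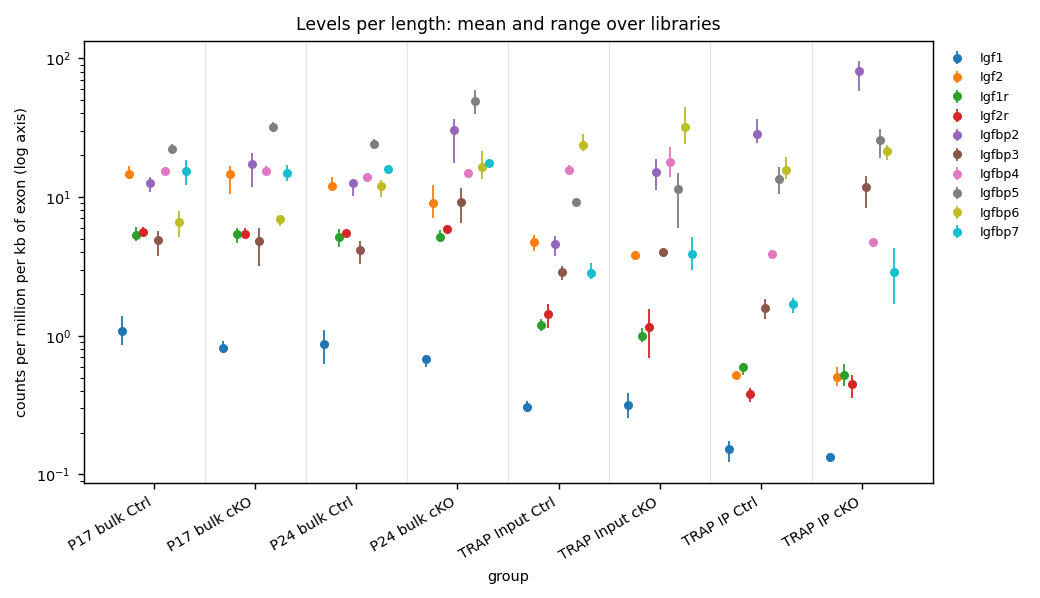
Mean level of each gene in CPM per kb of exon (log axis) in the 8 groups; vertical lines span the lowest and highest library, with 4 libraries per bulk group and 3 per TRAP group. Igf1 is lowest in every group, Igfbp5 is highest in the 4 bulk groups and Igfbp2 in both IP groups.

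To ask how the knockout touched the family in whole cortex at P24, cKO libraries were compared with Ctrl libraries by the edgeR quasi-likelihood test across 22495 genes, with an adjusted p under 0.05 as the threshold. Of the 10 genes, 3 were higher, Igfbp2, Igfbp3 and Igfbp5, and none was lower, while 1.26% of all genes tested were higher and 0.462% lower. The median log2 fold change was 0.12 over the family and 0.00 over all genes. The values of the genotypes did not overlap for 5 members, these 3 with Igfbp6 and Igfbp7.

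Igfbp5, a matrix-binding member of the family, read 144, 136, 140 and 158 CPM in the Ctrl mice and 282, 357, 308 and 237 CPM in the cKO mice. Every cKO library lay above every Ctrl library. The means were 144 ± 9.38 and 296 ± 50.2 CPM (SD over 4 mice each), and the log2 fold change was 1.03 ± 0.10 (SE, adjusted p = 0.000325).

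Igfbp2, the main binding protein of cerebrospinal fluid, read 24.9, 24.7, 18.9 and 25.1 CPM in Ctrl and 32.2, 65.4, 67.9 and 57.5 CPM in cKO mice. The groups did not overlap, but 1 cKO mouse (replicate 1) stood well below the other cKO mice. The means were 23.4 ± 2.99 and 55.7 ± 16.3 CPM, a log2 fold change of 1.25 ± 0.19 (SE, adjusted p = 0.00585).

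Igfbp3, the main carrier of IGFs in blood, read 15.002, 14.1, 12.5 and 10.3 CPM in Ctrl and 20.3, 30.3, 27.1 and 36.6 CPM in cKO mice. Here too the groups were apart, and cKO replicate 1 was again the lowest of its group. The means were 13.0 ± 2.05 and 28.6 ± 6.78 CPM, a log2 fold change of 1.14 ± 0.16 (SE, adjusted p = 0.00384).

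The other binding proteins moved less. Igfbp6, which prefers IGF2 over IGF1, lay between 11.1 and 14.9 CPM in Ctrl and between 15.04 and 23.8 CPM in cKO mice, without overlap, and its log2 fold change of 0.44 ± 0.14 did not pass (adjusted p = 0.171). Without cKO replicate 1 it was 0.52 and passed (adjusted p = 0.0448). Igfbp7, a vessel-associated member with weak affinity for IGFs, lay between 19.1 and 19.6 CPM in Ctrl and between 20.3 and 22.7 CPM in cKO mice, and its difference of 0.14 ± 0.06 on the log2 scale did not pass (adjusted p = 0.318). Igfbp4, a largely inhibitory binding protein, differed by 0.09 ± 0.05 on the log2 scale (adjusted p = 0.506).

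Neither ligand passed the test at P24. Igf2 read 63.8, 79.3, 64.5 and 65.7 CPM in Ctrl and 40.1, 50.4, 69.4 and 47.9 CPM in cKO mice. The groups overlapped through cKO replicate 3, and the log2 fold change was -0.40 ± 0.14 (SE, adjusted p = 0.224), and it passed at -0.57 without that library (adjusted p = 0.0236). Igf1 had a mean of 8.69 ± 2.05 CPM in Ctrl and 6.75 ± 0.602 CPM in cKO mice, which was -0.36 ± 0.16 on the log2 scale (adjusted p = 0.355).

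Reads on Igf2 could not be separated from those on Gm49394, a gene on the same strand that overlaps 62.8% of the exonic bases of Igf2. Their counts differed by between 0 and 5 reads in each of the 28 libraries. Summed choroid plexus markers came to 13.2, 408, 155 and 159 CPM in Ctrl replicates 1 to 4 and to 6.20, 72.1, 283 and 315 CPM in cKO replicates 1 to 4. The libraries with the highest and the lowest Igf2 had the highest and the lowest of these sums, but Ctrl replicate 1 had a low sum with Igf2 at 63.8 CPM, and cKO replicate 4 a high sum with Igf2 at 47.9 CPM. Meningeal fibroblast markers ranged from 50.0 CPM in cKO replicate 1 to 132 CPM in Ctrl replicate 1. What part these tissues had in the Igf2 values was not tested.

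The receptors were close to equal between genotypes at P24. Igf1r had a mean of 86.2 ± 10.7 CPM in Ctrl and 85.9 ± 8.02 CPM in cKO mice, and Igf2r 51.4 ± 1.65 and 54.5 ± 2.98 CPM. The log2 fold changes were -0.00 ± 0.09 for Igf1r, with an interval of 2 SE from -0.18 to 0.17, and 0.08 ± 0.06 for Igf2r, with an interval from -0.03 to 0.20. Summed by role, the binding proteins came to 275 ± 9.98 CPM in Ctrl and 485 ± 56.4 CPM in cKO mice, the ligands to 77.0 ± 7.38 and 58.7 ± 12.6 CPM, and the receptors to 138 ± 11.4 and 140 ± 8.53 CPM.

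**Figure D2:**
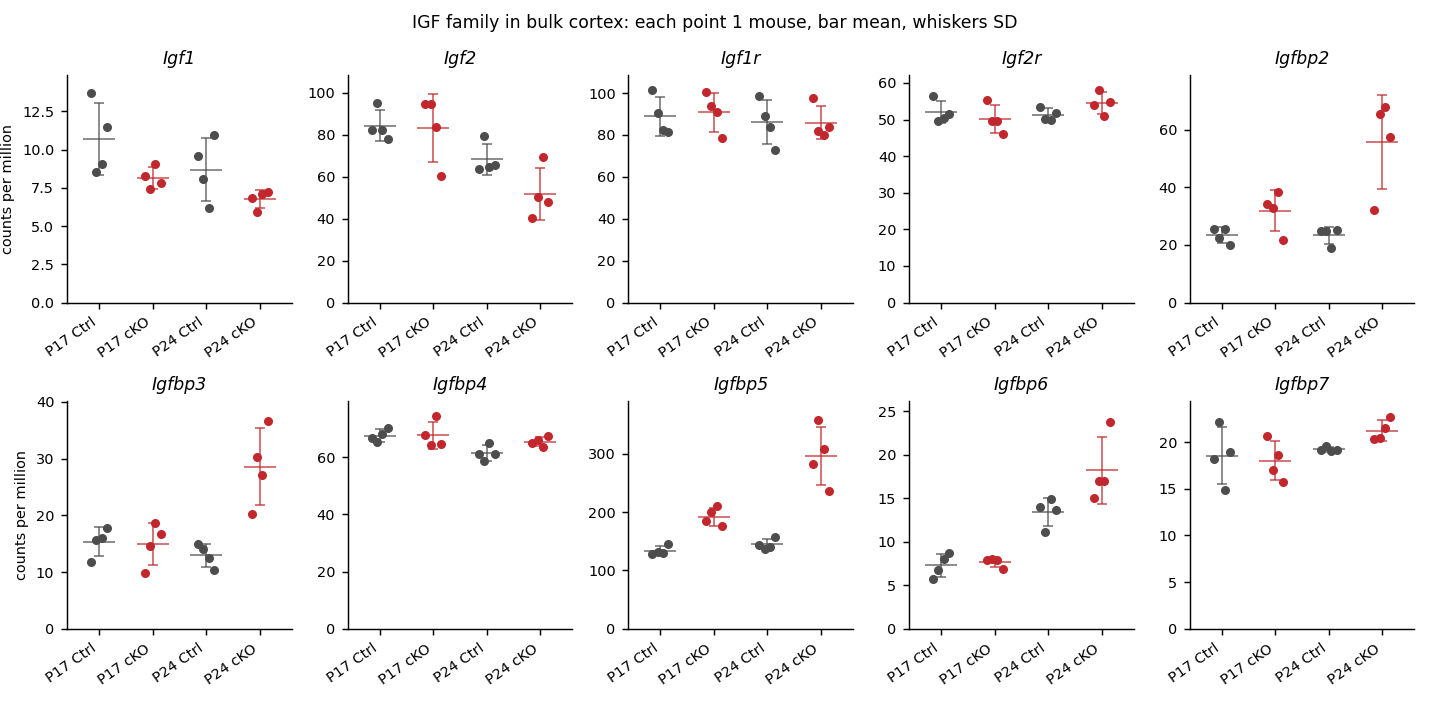
CPM of the 10 genes in bulk cortex at P17 and P24, with 1 point per mouse, the mean as a bar and the SD as whiskers (4 mice per group). Igfbp2, Igfbp3 and Igfbp5 are higher in all 4 P24 cKO mice than in any P24 Ctrl mouse, and at P17 Igfbp5 is the gene whose groups are apart.

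In the same libraries, the activated phagocyte list had a higher sum in every cKO mouse than in any Ctrl mouse. Its 7 genes summed to between 21.5 and 26.9 CPM in Ctrl and between 39.4 and 115 CPM in cKO mice, with the lowest cKO value in replicate 1, and 2 of its 5 tested genes, Gpnmb and Lgals3, were higher, while Lpl was at 0.08 and Spp1 at -0.04 on the log2 scale. The 7 microglial markers summed to between 399 and 465 CPM in Ctrl and between 375 and 504 CPM in cKO mice, and none passed. The 8 astrocyte markers summed to between 3695 and 4307 CPM in Ctrl and between 3301 and 3660 CPM in cKO mice. These sums were lower in cKO mice without overlap, and of the 8 markers 2 were higher and 3 lower. Aqp4 and Aldh1l1 were higher, by 1.25 and 1.18 on the log2 scale. Slc1a2, Slc1a3 and Slc7a10 were lower (-0.41, -0.40 and -0.75), and the median log2 fold change of the list was 0.03. Slc1a2 had the highest level of the 8, at a mean log2 CPM of 11.2. The part of any of these lists in the binding protein values was not tested, and in whole cortex fewer or more cells of a type and less or more RNA per cell cannot be told apart.

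At P17 the same comparison across 21201 genes called Igfbp5 higher and no other member in either direction, where 0.0660% of all genes were higher and 0.0283% lower. Igfbp5 read 129, 132, 130 and 145 CPM in Ctrl and 184, 200, 210 and 175 CPM in cKO mice. All cKO values were above all Ctrl values. The means were 134 ± 7.48 and 192 ± 15.4 CPM, a log2 fold change of 0.52 ± 0.07 (SE, adjusted p = 0.0106). The call was lost without Ctrl replicate 2 or without cKO replicate 2, where the adjusted p reached up to 0.0817 and the log2 fold change stayed between 0.48 and 0.56.

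Igfbp2 read 25.6, 22.6, 25.5 and 20.1 CPM in P17 Ctrl and 34.4, 32.8, 38.3 and 21.7 CPM in cKO mice. Only cKO replicate 4 fell within the Ctrl range. The log2 fold change of 0.43 ± 0.15 did not pass (SE, adjusted p = 0.943). Libraries with the same replicate number deviated together at P17, and with that number as a block 2 members were called higher, Igfbp5 and Igfbp2 (0.43 ± 0.08, adjusted p = 0.00797), while 0.396% of all genes were then higher and 0.118% lower.

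Igfbp3 did not separate the genotypes at P17, with 11.8, 15.7, 16.1 and 17.9 CPM in Ctrl and 9.92, 14.5, 18.7 and 16.8 CPM in cKO mice. Its log2 fold change was -0.03 ± 0.17 (adjusted p = 1.00). Igf1 ran from 8.51 to 13.7 CPM in Ctrl and from 7.43 to 9.06 CPM in cKO mice, and the difference of -0.40 ± 0.16 on the log2 scale did not pass (adjusted p = 1.00). The 6 other members lay between -0.05 and 0.08 on the log2 scale. Activated phagocyte genes summed to between 22.7 and 30.3 CPM in Ctrl and between 29.8 and 31.9 CPM in cKO mice at this age.

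Whether the effect of genotype differed between the ages was tested as an interaction over all 16 bulk libraries. No member passed by edgeR without a block, against 0.0470% of all genes, while 3 had an unadjusted p under 0.05 and DESeq2 called 1. Those 3 were the same binding proteins, with differences between the P24 and P17 log2 fold changes of 1.16 ± 0.27 for Igfbp3 (adjusted p = 0.234), 0.81 ± 0.28 for Igfbp2 (adjusted p = 0.590) and 0.51 ± 0.13 for Igfbp5 (adjusted p = 0.358). The gene called by DESeq2 was Igfbp3 (adjusted p = 0.0106). With the replicate block edgeR also called Igfbp3 (1.17, adjusted p = 0.0453), and without the filter it called Igfbp3 (adjusted p = 0.00339) and Igfbp5 (adjusted p = 0.0336). Without P24 cKO replicate 1, edgeR called 2, Igfbp3 at 1.29 (adjusted p = 0.0112) and Igfbp2 at 1.00 (adjusted p = 0.0168).

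To look at mRNA on tagged ribosomes, IP libraries of cKO and Ctrl mice were compared across 23864 genes. The same 3 binding proteins were higher and no member was lower. In this comparison 11.6% of all genes were higher and 8.42% lower, a far wider background than in bulk. The median log2 fold change was 0.37 over the family and -0.01 over all genes.

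Igfbp3 changed most of the family. It read 5.04, 4.12 and 5.74 CPM in Ctrl and 26.0, 40.2 and 44.0 CPM in cKO mice. The lowest cKO library was well above the highest Ctrl library. The means were 4.97 ± 0.814 and 36.7 ± 9.48 CPM (SD over 3 mice each), and the log2 fold change was 2.90 ± 0.21 (SE, adjusted p = 1.92e-05), which is 7.44-fold.

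Igfbp2 read 46.2, 67.4 and 45.2 CPM in Ctrl and 107, 177 and 168 CPM in cKO IP libraries. The groups did not overlap, and the log2 fold change was 1.52 ± 0.20 (SE, adjusted p = 0.000773). Igfbp5 read 63.3, 98.6 and 80.7 CPM in Ctrl and 115, 162 and 185 CPM in cKO IP libraries. It too was apart, with a log2 fold change of 0.94 ± 0.19 (SE, adjusted p = 0.00583), but with the spread shared over all TRAP libraries the call was lost (adjusted p = 0.0613).

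The remaining binding proteins lay on the same side and did not pass by the edgeR quasi-likelihood test. Igfbp4 read 16.2, 17.8 and 17.7 CPM in Ctrl and 19.1, 22.4 and 21.4 CPM in cKO IP libraries, without overlap (0.29 ± 0.11, adjusted p = 0.0879). The log2 fold changes were 0.44 ± 0.16 for Igfbp6 (adjusted p = 0.0679) and 0.78 ± 0.30 for Igfbp7 (adjusted p = 0.0864), whose libraries overlapped. Without cKO replicate 1, the library with the lowest Igfbp2, Igfbp3 and Igfbp5 of its group, 6 members were called, with Igfbp4 at 0.38, Igfbp6 at 0.56 and Igfbp7 at 1.09. Igfbp6 also passed without Ctrl replicate 3 (0.63, adjusted p = 0.0215), and by DESeq2 (adjusted p = 0.0294), the edgeR exact test (0.0447), without the filter (0.0185) and with the replicate block (0.00691). Igfbp7 passed without the filter (adjusted p = 0.0197) and Igfbp4 with the replicate block (adjusted p = 0.0409).

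Neither the ligands nor the receptors passed in the IP libraries. Igf2 lay between 2.93 and 3.02 CPM in Ctrl and between 2.48 and 3.41 CPM in cKO mice, and Igf1 between 1.21 and 1.73 and between 1.21 and 1.41 CPM. Igf1r differed by -0.18 ± 0.16 on the log2 scale (adjusted p = 0.479) and Igf2r by 0.23 ± 0.19 (adjusted p = 0.435). Scaling by library size alone moved the median of all genes by -0.11 on the log2 scale and turned the calls of the whole comparison from 2772 higher and 2010 lower to 2002 higher and 3529 lower. The same 3 members were called under it, with Igfbp3 at 2.78, Igfbp2 at 1.40 and Igfbp5 at 0.82.

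Activated phagocyte genes summed to between 5.78 and 7.90 CPM in Ctrl and to between 76.4 and 162 CPM in cKO IP libraries, with 2 of the 4 tested genes called, again Gpnmb and Lgals3. Of the 7 genes on that list, between 1 and 2 were at or under 3 counts in the cKO IP libraries. In cKO mice the same list summed to between 22.6 and 34.0 CPM in Input libraries, below its IP values. Between cKO IP and Input libraries Gpnmb was higher by 2.46 and Lgals3 by 3.34 on the log2 scale, and Lpl and Spp1 were lower (-1.35 and -1.90). The 7 microglial markers summed to between 127 and 150 CPM in Ctrl and between 138 and 258 CPM in cKO IP libraries, with 1 called higher between genotypes, and 5 of the 7 were lower in IP than in Input libraries of cKO mice. Mural markers summed to between 26.1 and 36.6 CPM in Ctrl and between 36.9 and 46.7 CPM in cKO IP libraries, without overlap, with 2 of 5 tested called higher. Oligodendrocyte precursor markers summed to between 24.8 and 32.9 and between 28.2 and 64.0 CPM, with 1 of 3 called higher. Of the 8 astrocyte markers none was higher and 3 were lower. The part of these lists in the IP values was not tested.

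In the Input libraries of the same mice, Igfbp2 was the single member called, against 0.0923% of 23828 genes higher and 0.0168% lower. It read 8.61, 9.63 and 6.94 CPM in Ctrl and 34.7, 28.6 and 20.8 CPM in cKO mice. The groups were apart, and the log2 fold change was 1.74 ± 0.23 (SE, adjusted p = 0.0410). The call rested on few libraries, since it was lost in 4 of the 6 fits that left 1 out (each Ctrl replicate, and cKO replicate 2), with log2 fold changes from 1.56 to 1.91 and adjusted p up to 0.362.

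Igfbp3 read 9.16, 7.91 and 9.92 CPM in Ctrl and 12.9, 12.3 and 12.2 CPM in cKO Input libraries, without overlap, and did not pass (0.47 ± 0.16, adjusted p = 0.812). Igfbp5 read 54.7, 55.5 and 56.8 CPM in Ctrl and 35.6, 89.9 and 79.2 CPM in cKO mice. The cKO values fell on both sides of the Ctrl values, with replicate 1 below them. That library also had the highest Input values of Igfbp4, Igfbp6 and Igfbp7, at 101, 49.2 and 6.23 CPM. The IP library of the same mouse had the lowest cKO IP values of these genes, at 19.1, 20.5 and 2.05 CPM. The TMM factor of the Input library was 0.884, against 0.976 to 1.04 in the other Input libraries. Without it 2 members were called, Igfbp2 and Igfbp5 (0.61, adjusted p = 0.0405). The astrocyte markers summed to between 828 and 954 CPM in Ctrl and between 1133 and 1484 CPM in cKO Input libraries, with 1 of 8 called higher. The activated phagocyte list summed to between 9.79 and 10.3 CPM in Ctrl and between 22.6 and 34.0 CPM in cKO Input libraries, without overlap, with 1 of its 4 tested genes called higher and a median log2 fold change of 1.85. The part of these differences in the values of the family was not tested.

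**Figure D3:**
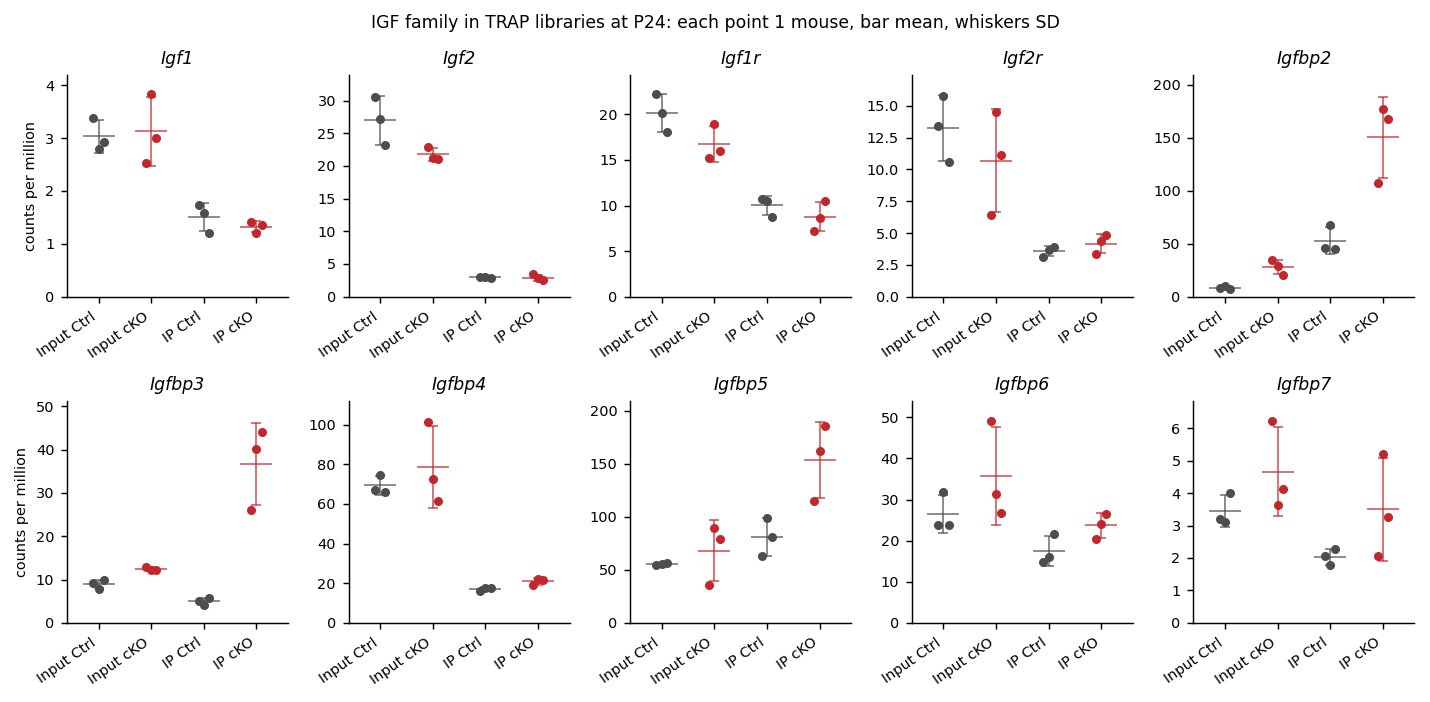
CPM of the 10 genes in TRAP Input and IP libraries at P24, with 1 point per mouse, the mean as a bar and the SD as whiskers (3 mice per group). Igfbp2, Igfbp3 and Igfbp5 are higher in all 3 cKO IP libraries than in any Ctrl IP library, and ligands and receptors sit lower in IP than in Input.

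Igfbp3 was the member whose response differed between the fractions. In a fit of all 12 TRAP libraries its log2 fold change between genotypes was larger in IP than in Input by 2.42 ± 0.27 (SE, adjusted p = 0.00504), and it was the single member called, against 0.0582% of all genes. The call held in each of the 12 fits without 1 library and with the mouse as a block. For Igfbp2 the difference was -0.23 ± 0.33 (adjusted p = 0.924), with an interval of 2 SE from -0.89 to 0.43, and for Igfbp5 it was 0.63 ± 0.39 (adjusted p = 0.712), with an interval from -0.15 to 1.41.

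Where the family sat relative to the tagged cells was read from IP against Input libraries of Ctrl mice. All 10 members passed, 2 higher and 8 lower in IP, in a comparison where 35.3% of 24385 genes were higher and 35.7% lower. Igfbp2 was higher by 2.64 ± 0.18 on the log2 scale (adjusted p = 1.26e-07) and Igfbp5 by 0.53 ± 0.14 (adjusted p = 0.00515), the latter not passing with the spread of all TRAP libraries shared (adjusted p = 0.104). Igf2 was lower by 9.10-fold, the farthest of the family, and Igfbp4 and Igf2r by 4.06-fold and 3.75-fold. All 8 astrocyte markers were higher in Ctrl IP than in Input libraries, at a median log2 fold change of 3.34. Of 5 tested mural markers 3 were higher and 1 lower, at a median of 1.01. The other marker lists had negative medians. The part of these cells in the values of the family was not tested.

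The other members that were lower in Ctrl IP than in Input libraries had log2 fold changes of -1.02 for Igf1, -1.02 for Igf1r, -0.87 for Igfbp3, -0.77 for Igfbp7 and -0.60 for Igfbp6. In cKO mice 9 members passed, 3 higher and 6 lower, where 27.8% of 24011 genes were higher and 28.5% lower. Igfbp3 was on the other side there, at 1.55 ± 0.21 (SE, adjusted p = 0.000326) in cKO against -0.87 ± 0.16 (adjusted p = 0.000472) in Ctrl mice. Igfbp7 did not pass in cKO mice (-0.42 ± 0.35, adjusted p = 0.333), and Igfbp6, at -0.60 ± 0.22 (adjusted p = 0.0480), did not pass with the mouse as a block (adjusted p = 0.0862) or in 5 of the 6 fits that left out 1 library, that without Input replicate 3 being the exception. Igfbp5 was higher in cKO IP libraries by 1.15 ± 0.34 (adjusted p = 0.0186), a call that was lost without IP replicate 3 (1.02, adjusted p = 0.0653).

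**Figure D4:**
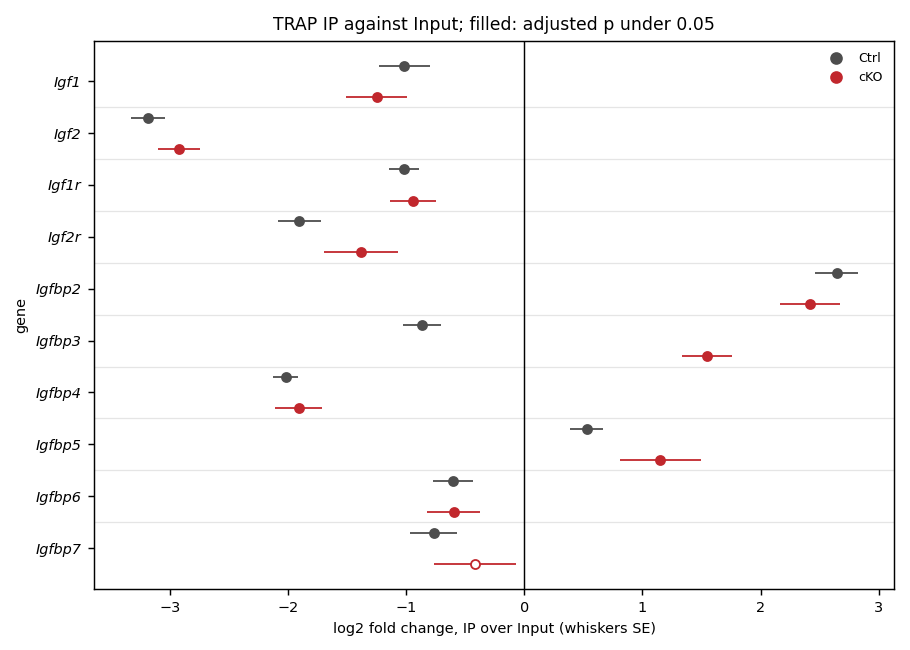
Log2 fold change of IP over Input libraries for each gene in Ctrl (grey) and cKO (red) mice at P24, with the SE as whiskers and filled points for an adjusted p under 0.05 (3 mice per genotype). Igfbp3 is at -0.87 in Ctrl and 1.55 in cKO mice, and Igfbp2 is high in both.

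**Figure D5:**
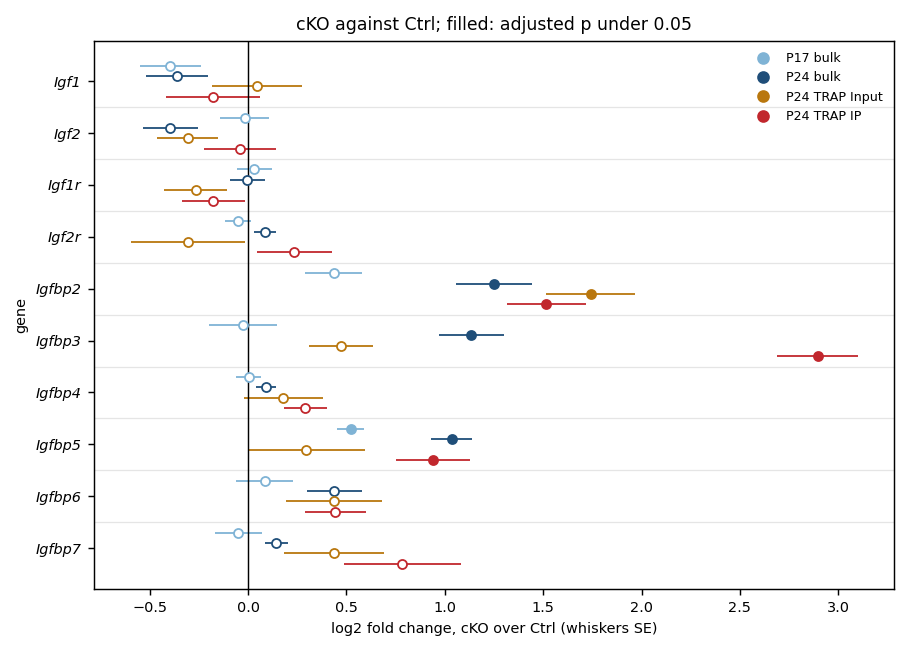
Log2 fold change of cKO over Ctrl libraries for each gene in P17 bulk, P24 bulk, P24 TRAP Input and P24 TRAP IP, with the SE as whiskers and filled points for an adjusted p under 0.05. Filled points appear for Igfbp2, Igfbp3 and Igfbp5, and the largest is Igfbp3 in IP at 2.90.

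The rest of the pathway was followed through 49 further genes: relatives of the IGFs and insulin, the binding protein proteases and their inhibitors, receptor adaptors, the PI3K, Akt and mTOR chain, and the FoxO factors. None of the 43 tested was called between genotypes in bulk at either age, and none of the 42 tested in Input libraries. Their median log2 fold change was -0.01 at P24 and 0.01 at P17. At an unadjusted p under 0.05, 5 passed in edgeR at P24, 0 at P17 and 2 in Input libraries, and DESeq2 called 0 in each of these comparisons, with 3 genes left without an adjusted p at P24.

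In IP libraries 2 of 42 pathway genes were higher and 7 lower in cKO mice, beside 11.6% and 8.42% of all genes, where the list's median log2 fold change was -0.13 against -0.01 over all genes. The farthest were Tsc2 (-0.60 ± 0.11, adjusted p = 0.00374) and Tsc1 (-0.45 ± 0.12, adjusted p = 0.0210), whose products together restrain mTOR. Pik3r2, a PI3K regulatory subunit, fell by 0.43 (adjusted p = 0.0352), and the transcription factors Foxo1 and Foxo3 fell by 0.40 and 0.37 on the log2 scale (adjusted p = 0.0142 and 0.0116). Grb14, an adaptor that inhibits insulin receptor signalling, was higher by 0.38 ± 0.12 (adjusted p = 0.0492). The other called genes were Mtor, Rheb and Sos2, and the PI3K, Akt and mTOR genes split into 1 higher and 4 lower. DESeq2 called 10 pathway genes here, with 3 left without an adjusted p. Pathway calls were not counted under the other scalings or in the fit of all TRAP libraries.

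Between IP and Input libraries of Ctrl mice, 12 of 42 pathway genes were higher and 25 lower, beside 35.3% and 35.7% of all genes. Htra1, a secreted protease, was higher by 3.41 on the log2 scale, its relative Htra3 by 2.19 and the binding-protein-like Igfbpl1 by 2.07. H19, the non-coding RNA next to Igf2, was at -3.10, beside -3.19 for Igf2 itself, and Mtor and Foxo6 were at -2.00 and -1.94. In cKO mice 10 of 41 were higher and 19 lower, beside 27.8% and 28.5% of all genes, with Igfbpl1 at 2.47, Htra1 at 2.46, H19 at -2.51, Foxo6 at -2.23, Tsc2 at -2.14 and Mtor at -2.04.

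Across the 16 bulk libraries, each taken as its deviation from its group mean, the genes whose log2 CPM followed each member most closely among 18663 were named, as a description of libraries that share depth, dissection and preparation. For Igfbp5 they were Gja1, the astrocytic gap junction protein connexin 43 (Pearson r = 0.869), Abcf1 (0.865) and Mdga1 (0.865). For Igfbp2 they were Serpinh1, a collagen chaperone (0.885), the laminin chain Lama5 (0.872) and Tst (0.866). For Igfbp3 they were A030001D20Rik (0.916), Rps24-ps2 (0.908) and Timm23 (0.905).

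Igf1r was followed by Mast4 (0.930), Carmil1 (0.918) and Focad (0.905), and Igf2r by Chd1 (0.894), A430073D23Rik (0.882) and Bag2 (0.880). For Igf1 the genes were Vkorc1l1 (0.857), Abraxas1 (0.823) and Zbtb6 (0.821). For Igf2 they were Gm49394 (1.00), whose counts are nearly the same reads, Gm26315 (0.869) and BC067074 (0.859). Igfbp4 had Cmtm4 (0.873), Igfbp6 had Gm12764 (0.843), Pcna-ps2 (0.840) and Gm5356 (0.836), and Igfbp7 had Dusp8 (0.857), Lhfpl5 (0.833) and Zbtb12 (0.831).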

How the data were processed

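Cortical RNA was sequenced in 28 libraries of 3 experiments, each library from 1 mouse, and in TRAP an IP and an Input library came from the same mouse. The authors aligned reads to mm10 with STAR and deposited whole-number counts for each Ensembl identifier that had not been normalized. How reads were counted, whether strand was used and which annotation served are not given in the sources used here, and without strand a gene and its antisense partner cannot be told apart. Polr2b overlaps 7.03% of the exonic bases of Igfbp7 and Igf2os 1.71% of those of Igf2, both on the other strand. The bulk tables carry the age in the table's name alone.

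Groups came from the sample titles. Symbols, positions and exonic lengths came from GENCODE release 21 of GRCm38, which held 53237 of the 53342 identifiers. CPM were scaled by TMM factors over genes kept by filterByExpr (a minimum count of 10, a total of 15 and a proportion of 70%). Groups were compared in R 4.3.3 with the two-sided quasi-likelihood test of edgeR 4.0.16, with Benjamini-Hochberg adjustment over all genes tested and an adjusted p under 0.05, in 8 comparisons. Each SE was obtained from the log2 fold change and the F statistic (absolute value over the root of F). The TRAP comparisons and the interactions reuse the same libraries, so values are set side by side only. Between genotypes, p-values measure the spread between mice. IP and Input libraries of a mouse entered the main fits as separate libraries. The p-values of IP against Input and of the fraction interaction therefore do not take the shared mouse into account, and the mouse as a block was an alternative. The code was tested on simulated data.

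The 10 genes and the pathway and marker lists were chosen with earlier results of these data known. The genes named were all 10 members, up to 6 called pathway genes per comparison by size of log2 fold change, and for each member the 3 genes of highest Pearson r whose mean log2 CPM reached 1. The targeted gene and some genes of that last rule are not reported here. Gpnmb, Lgals3, Lpl, Spp1 and the called astrocyte markers of P24 bulk were named after their values were seen. Mtor, Rheb and Sos2 were added for the IP comparison as its other called pathway genes. The alternatives were DESeq2 1.42.0, RLE factors, library size alone, no filter beyond 1 count, the edgeR exact test, all libraries of an experiment type in one fit, the replicate number (or mouse) as a block, and leaving out each library. The replicate numbers come from the sample titles. Same-numbered cKO and Ctrl libraries at P17 had deviations from their group means that correlated at between 0.167 and 0.380, so the numbers were taken as pairs there.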

Additional observations from a re-analysis of the deposited data

Results flagged for a closer look

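Of 40 groups of 4 libraries checked, 3 held a library far from the rest of its group, where chance alone flags about 1 in 20 groups. Igf2 was 79.3 CPM in P24 bulk Ctrl replicate 2, against 63.8 to 65.7 CPM in the other 3 Ctrl mice, and the same library had the highest sum of choroid plexus markers, 408 CPM. Igfbp2 was 18.9 CPM in P24 bulk Ctrl replicate 3, below the 24.7 to 25.1 CPM of the other Ctrl mice. Igfbp6 was 6.88 CPM in P17 bulk cKO replicate 4, below the 7.87 to 7.97 CPM of the other cKO mice. Igfbp3 was flagged because its response to genotype differed between fractions, by 2.42 on the log2 scale more in IP than in Input libraries.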

How the results depend on the processing

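Igfbp2, Igfbp3 and Igfbp5 were called higher at P24 in bulk in each alternative, and between 3 and 4 members were called when 1 library was left out. At P17 the number called was 2 with the replicate block and between 0 and 1 without 1 library. In IP libraries it was 5 without the filter, 5 with the replicate block, and between 3 and 6 without 1 library. In Input libraries it was 0 with the replicate block (Igfbp2 1.72, adjusted p = 0.0708) and between 0 and 2 without 1 library. For the interaction of age and genotype it was 1 in DESeq2, 2 without the filter, 1 with the replicate block, and between 0 and 2 without 1 library. The replicate numbers were not taken as pairs in P24 bulk or between TRAP genotypes. In P24 bulk same-numbered libraries correlated at between 0.0286 and 0.218, and others at up to 0.2145. Between TRAP genotypes, same-numbered IP libraries correlated at between 0.0355 and 0.116, and the others at between -0.0950 and -0.0107. For Input libraries these ranges were -0.0342 to 0.102 and -0.118 to 0.0602. Whether the numbers mark pairs there cannot be told from these values. IP and Input libraries share the mouse, although their deviations correlated at between -0.10 and 0.12. The block changed no other number of members called by over 1.5 times.

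Changes of sign were found for values near 0 that passed no test. Igf1r at P24 was 0.00886 by library size alone, Igfbp4 at P17 was -0.00531 without the filter, and the fraction interaction of Igfbp6 was -0.0496 by library size alone and -0.0383 without the filter. Without 1 library, log2 fold changes ran from -0.0776 to 0.0660 for Igf1r at P24. At P17 they ran from -0.0861 to 0.108 for Igf2, -0.0168 to 0.0988 for Igf1r, -0.146 to 0.128 for Igfbp3, -0.0408 to 0.0277 for Igfbp4, -0.0260 to 0.179 for Igfbp6 and -0.140 to 0.0502 for Igfbp7. They ran from -0.147 to 0.0553 for Igf2 in IP, and in Input from -0.124 to 0.165 for Igf1 and -0.0501 to 0.321 for Igfbp4. For the age interaction they ran from -0.113 to 0.163 for Igf1 and -0.110 to 0.0304 for Igf1r, and for the fraction interaction from -0.0696 to 0.186 for Igf1r, -0.0377 to 0.333 for Igfbp4, -0.172 to 0.299 for Igfbp6 and -0.0583 to 0.601 for Igfbp7. The cause was not tested.

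Over all genes, calls moved from 388 at P24 to between 216 and 950 without 1 library, 598 in DESeq2, 618 without the filter and 603 in the exact test. At P17 they moved from 20 to 109 with the block, between 11 and 19 without 1 library, 41 in DESeq2, 55 without the filter and 57 in the exact test. In IP libraries 4782 became 1684 in the single fit and between 2633 and 4810 without 1 library. In Input libraries 26 became 127 in DESeq2, 112 without the filter, 8 with the block, 136 in the exact test, 127 in the single fit, and between 4 and 112 without 1 library. For the age interaction 11 became 54 in DESeq2, 62 without the filter, 55 with the block and between 4 and 149 without 1 library. For the fraction interaction 15 became 284 in DESeq2, 189 without the filter, 6 with the block and between 3 and 432 without 1 library, and the split of 10 higher and 5 lower became 5 and 5 with RLE factors and 5 and 7 by library size alone. TRAP tests rest on 3 mice per group.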

Other observations

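Ctrl levels of the members at the 2 ages were set side by side with no test, since each age was scaled on its own table and age cannot be told apart from table. Igfbp6 had a mean of 7.30 ± 1.35 CPM in P17 and 13.4 ± 1.62 CPM in P24 Ctrl mice (SD, n = 4), and the libraries of the ages did not overlap. Igfbp4, at 67.5 ± 2.13 and 61.5 ± 2.72 CPM, was only just without overlap. Its lowest P17 library was at 65.13 CPM and its highest P24 library at 65.06 CPM. The share of all genes without overlap between the ages was not counted. Igf2 had 84.4 ± 7.53 and 68.3 ± 7.39 CPM, with overlap through P24 Ctrl replicate 2.

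Over the 16 bulk libraries, log2 CPM of the members was compared as deviations from group means that share depth and preparation. Igf2 and Igfbp2 had a Pearson r of 0.724, the highest of all pairs of members. The next was 0.564, for Igfbp4 and Igfbp6, and Igf2 and Igfbp3 had one of -0.0530. These values are given as a description.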
